A study of Homo sapiens with 6 samples.

Results

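The genes described here are 10 genes of the circadian clock, CLOCK, PER1, PER2, PER3, CRY1, CRY2, NR1D1, NR1D2, DBP and TEF. They were taken by gene symbol from a table of 30716 genes, and all 10 were present, each with 1 row. The cells were SNU16, a human gastric carcinoma line, grown with fetal bovine serum. RNA was sequenced from 3 libraries of cells with a control shRNA (shcon group) and from 3 libraries of cells with an shRNA against ENO1 (shENO1 group). ENO1 encodes alpha-enolase, an enzyme of glycolysis. The shRNA was brought in with a lentivirus and positive cells were enriched with puromycin, the number of hairpins used is not given in the sources used here, and the libraries are described as biological replicates without saying whether they were separate cultures, so p-values measure the spread between these libraries. The time of day of harvest and any step that would set the cells to a common phase are not given either. Whether the libraries of a group share a time is thus not known, and a phase or a rhythm of a clock gene cannot be read from these values.

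The clock is a transcription loop that runs in nearly every cell. CLOCK pairs with BMAL1 and activates genes through E-box elements, among them PER, CRY, NR1D1, NR1D2, DBP and TEF. PER and CRY proteins return to the nucleus and hold CLOCK and BMAL1 back, while the nuclear receptors REV-ERB alpha (NR1D1) and REV-ERB beta (NR1D2) repress BMAL1 and other genes and compete with the activating ROR receptors. DBP and TEF activate genes with D-box elements, against which NFIL3 acts as a repressor. The loop is tied to metabolism through proteins that sense heme, NAD+ or AMP, and cultured cells are set to a common phase by serum, cAMP or glucocorticoids.

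Promoter sequences are shown for the genes on which the results below turn, NR1D1 and NR1D2, for PER1, and for BMAL1, the partner of CLOCK. Each is the RefSeq window of GRCh38.p14 from 250 bases before to 50 bases after a transcription start, read 5' to 3' on the strand of the gene. Capitals mark the E-box CACGTG, the D-boxes TTATGTAA and TTACGTAA, the element AGGTCA that REV-ERB and ROR receptors bind, and the cAMP response element TGACGTCA, each searched on both strands.
NR1D1, chr17:40100540-40100839, minus strand: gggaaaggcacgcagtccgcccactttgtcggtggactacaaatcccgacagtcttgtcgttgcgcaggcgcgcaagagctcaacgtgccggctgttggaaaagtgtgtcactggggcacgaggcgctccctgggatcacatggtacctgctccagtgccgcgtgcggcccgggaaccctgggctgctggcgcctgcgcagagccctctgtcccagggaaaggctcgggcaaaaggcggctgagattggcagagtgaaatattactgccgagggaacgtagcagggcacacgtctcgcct
NR1D2, chr3:23945871-23946170, plus strand: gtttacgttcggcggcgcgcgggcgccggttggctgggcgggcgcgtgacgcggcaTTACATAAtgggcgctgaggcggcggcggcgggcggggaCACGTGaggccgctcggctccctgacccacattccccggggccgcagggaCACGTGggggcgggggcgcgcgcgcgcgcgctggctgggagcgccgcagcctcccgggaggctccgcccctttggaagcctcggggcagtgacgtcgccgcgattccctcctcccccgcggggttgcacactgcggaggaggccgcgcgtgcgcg
PER1, chr17:8152355-8152654, minus strand: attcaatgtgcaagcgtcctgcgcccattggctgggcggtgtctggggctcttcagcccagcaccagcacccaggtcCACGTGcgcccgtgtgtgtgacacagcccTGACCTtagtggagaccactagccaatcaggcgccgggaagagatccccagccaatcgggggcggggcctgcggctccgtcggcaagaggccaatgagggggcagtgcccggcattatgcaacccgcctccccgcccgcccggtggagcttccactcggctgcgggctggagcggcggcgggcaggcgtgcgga
BMAL1, chr11:13277540-13277839, plus strand: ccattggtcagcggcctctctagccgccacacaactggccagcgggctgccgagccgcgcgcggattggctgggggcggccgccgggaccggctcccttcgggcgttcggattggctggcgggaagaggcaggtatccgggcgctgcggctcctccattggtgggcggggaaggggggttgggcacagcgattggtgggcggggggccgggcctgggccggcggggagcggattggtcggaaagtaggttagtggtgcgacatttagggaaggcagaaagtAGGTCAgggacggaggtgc

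RefSeq has 2 windows for NR1D2 and 2 for BMAL1, of which those with motifs are shown. The NR1D2 window shown held a pair of E-boxes, whose first bases lie at -155 and -105 from the start, and a D-box at -194 on the opposite strand. The other NR1D2 window, at the start of the gene in the table (chr3:23945036-23945335), and the single NR1D1 window held none of the motifs searched. The PER1 window held an E-box at -173 and the receptor element at -144 on the opposite strand, and the BMAL1 window shown held the receptor element at 32, counting the start as 1. The PER1 window lies inside the gene as annotated for the levels (chr17:8140472-8156506), not at its start. The other BMAL1 window (chr11:13276402-13276701), which is the one at the start of the gene as annotated for the levels, held none. All 10 clock genes matched a RefSeq promoter, with 15 windows among them. Of the 10, 3 had an E-box in at least 1 window (PER1, NR1D2 and TEF), and 7.26% of 35116 human promoter windows of this length held it. A D-box was in a window of 3 genes (PER2, PER3 and NR1D2), beside 1.01% of all windows, and AGGTCA in a window of 2 genes (PER1 and CRY2), beside 13.8%. The cAMP response element was in a window of 0 genes, beside 1.85%. A match is a description of these letters, and a gene with more windows has more places for a match.

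Of the 10 clock genes, NR1D1 and NR1D2 were higher in shENO1 cells, by 1.78-fold and 1.76-fold of the mean level, and none was lower at the threshold used. Levels are FPKM, the fragments of a gene divided by its exon length and by the depth of the library. The test was limma on log2(FPKM + 1) over the 15181 genes whose mean reached 0.5 FPKM, a filter that all 10 passed, and a gene was called at a Benjamini-Hochberg adjusted p under 0.05. Fold changes are shENO1 minus shcon on this log2 scale, which understates the change of low genes. Of all genes tested, 29.5% were called, 15.1% as higher and 14.4% as lower, so 2 higher of 10 is near the share of all genes. The median log2 fold change of the 10 was 0.16, beside 0.03 for all genes tested. The 3 libraries of a group did not overlap with those of the other group for NR1D1, NR1D2, CLOCK and PER3, all 4 higher in shENO1, and 46.6% of all genes tested did not overlap (25.0% higher, 21.5% lower). With the replicate number as a block, 3 of the 10 were higher and 1 lower (NR1D1, NR1D2 and CLOCK, and PER1), beside 19.3% and 17.9% of all genes. The same genes were called by limma-voom on whole fragments recovered from the FPKM values, beside 17.8% and 16.4%, and with no filter on low genes NR1D2 alone was, beside 4.56% of all genes higher.

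**Figure D1:**
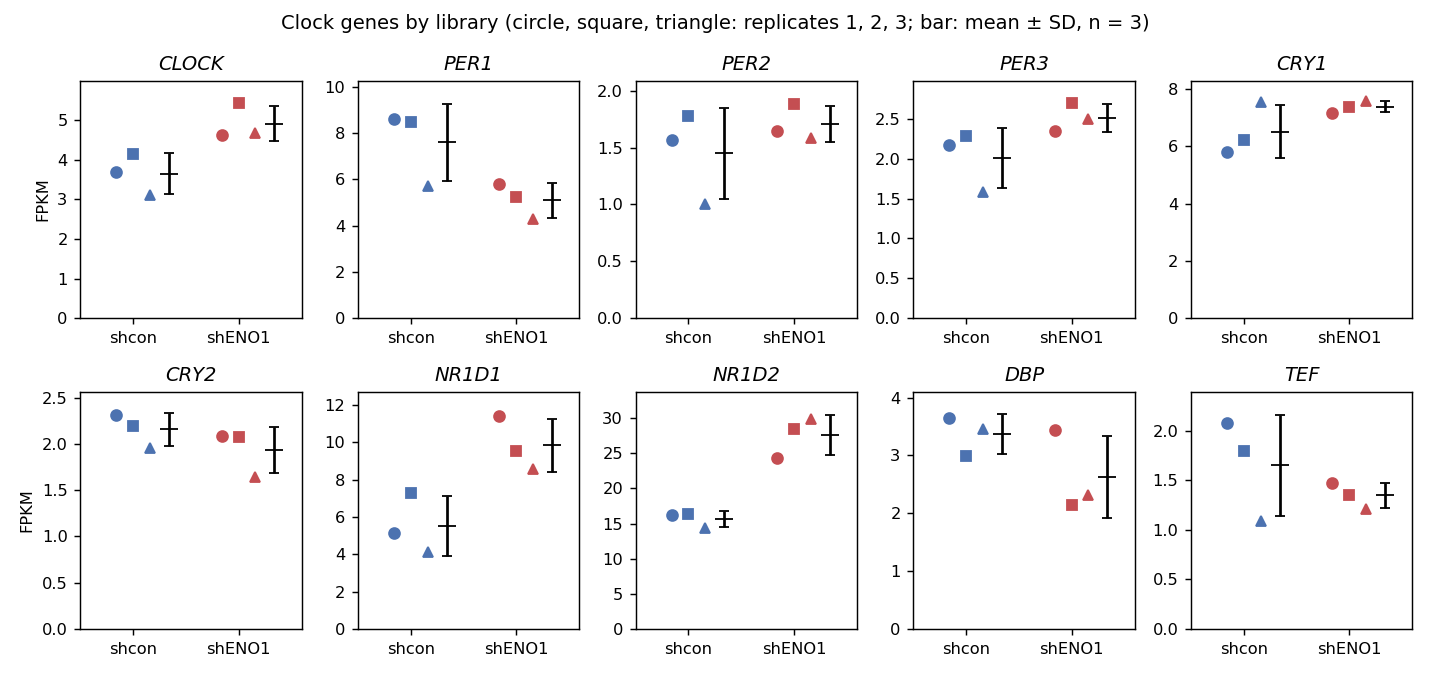
FPKM of the 10 clock genes in each library (circle, square and triangle are replicates 1, 2 and 3 of the group), with the mean and SD of 3 libraries beside them; the vertical axes start at 0 and differ between genes. NR1D1 and NR1D2 stand higher in every shENO1 library than in any shcon library, while PER1, CRY1, CRY2, DBP, PER2 and TEF overlap between the groups.

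The ENO1 transcript itself, on which the labels rest, was lower in each shENO1 library (99.5, 84.9 and 91.1 FPKM) than in each shcon library (323, 312 and 386 FPKM), a difference of -1.88 on the log2 scale (standard error 0.11, adjusted p = 0.000425). The libraries held an estimated 15572378 to 16963853 fragments, so that 1 fragment on a transcript of 1 kilobase is worth 0.0589 to 0.0642 FPKM. A two-sided exact permutation test of a single gene cannot go below p = 0.1 with 3 libraries against 3, and it gave 0.1 for NR1D1, NR1D2, CLOCK and PER3 and 0.2 or more for the other 6 clock genes. Of the epithelial markers, KRT8 and KRT18 were abundant, EPCAM and CDH1 stood near 1 FPKM and KRT19 was at or near 0. The 7 epithelial markers summed to 443 to 575 FPKM in shcon and 213 to 249 FPKM in shENO1. Of the 6 that were tested, 3 were called lower and none higher, beside 14.4% of all genes tested lower. The 5 fibroblast markers in the table summed to 22.2 to 29.2 FPKM in shcon and 14.5 to 15.1 FPKM in shENO1. Of the 4 that were tested, 3 were called lower (DCN, LUM and PDGFRB). The endothelial sum was 9.32 to 16.4 FPKM in shcon and 3.87 to 5.00 FPKM in shENO1, nearly all of it CDH5, with PECAM1 and VWF near 0. The 3 immune markers in the table summed to at most 0.0931 FPKM, with PTPRC at or near 0. The part of these markers in the clock gene values was not tested, and in bulk RNA fewer cells of a type and less RNA per cell cannot be told apart.

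NR1D2 (ENSG00000174738, GRCh38 chr3:23945286-23980617), the gene of REV-ERB beta, had the highest level of the 10 clock genes in both groups. It stood at 16.2, 16.4 and 14.4 FPKM in shcon libraries 1, 2 and 3 and at 24.3, 28.5 and 29.9 FPKM in shENO1 libraries 1, 2 and 3. All shENO1 libraries lay above all shcon libraries, with a gap larger than the spread within either group. The means were 15.7 ± 1.12 FPKM (SD, n = 3) and 27.6 ± 2.89 FPKM (SD, n = 3), and on the log2 scale shENO1 was higher by 0.78 (standard error 0.11, adjusted p = 0.00431). In fragments these levels correspond to 1531, 1516 and 1384 in shcon and 2302, 2799 and 2697 in shENO1. NR1D2 was called higher under all 20 other settings that kept the threshold, with log2 fold changes from 0.44 to 0.86.

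NR1D1 (ENSG00000126368, GRCh38 chr17:40092793-40100589), the gene of REV-ERB alpha, stood at 5.11, 7.31 and 4.12 FPKM in shcon and at 11.4, 9.55 and 8.55 FPKM in shENO1. The groups did not overlap, and the shcon library closest to shENO1 was replicate 2. The means were 5.51 ± 1.63 FPKM (SD, n = 3) and 9.83 ± 1.44 FPKM (SD, n = 3), and the difference on the log2 scale was 0.75 (standard error 0.18, adjusted p = 0.0205). These levels rest on 219, 307 and 180 fragments in shcon and 489, 426 and 350 in shENO1, fewer than for NR1D2, and the standard error is larger. NR1D1 was called under 16 of 20 other settings, and missed the threshold when shcon replicate 1 (adjusted p = 0.0708), shENO1 replicate 1 (0.0557) or shENO1 replicate 2 (0.0676) was left out, and with no filter on low genes (0.071). Its exons share 263 of 2772 bases with THRA, a gene on the opposite strand, and whether the authors counted by strand is not given in the sources used here. THRA stood at 9.64, 9.48 and 8.50 FPKM in shcon and at 8.39, 6.78 and 7.04 FPKM in shENO1 (log2 fold change -0.28, adjusted p = 0.0762), the opposite sign to NR1D1. Within a library, the difference in log2(FPKM + 1) between NR1D1 and NR1D2 was -1.38 ± 0.28 (SD, n = 3) in shcon and -1.40 ± 0.34 (SD, n = 3) in shENO1, and these values overlapped between the groups.

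CLOCK (ENSG00000134852, chromosome 4), the activator that binds DNA with BMAL1, stood at 3.68, 4.15 and 3.11 FPKM in shcon and at 4.63, 5.43 and 4.68 FPKM in shENO1. The groups did not overlap, but the difference missed the threshold, at 0.35 on the log2 scale (standard error 0.11, adjusted p = 0.0516). With the replicate block it was called (adjusted p = 0.0242), as it was with limma-voom (0.44, adjusted p = 0.0211). BMAL1, listed under its older symbol ARNTL, was higher in shENO1, at 3.04, 2.73 and 3.13 FPKM in shcon and 4.40, 3.92 and 4.0 FPKM in shENO1 (log2 fold change 0.36, adjusted p = 0.0238). That call was lost in 5 of the 6 fits that left out 1 library, all but the one without shcon replicate 3, with adjusted p from 0.0534 to 0.0792. NPAS2, a relative that can take the place of CLOCK, stood at 8.62, 9.71 and 7.61 FPKM in shcon and 11.3, 11.2 and 9.17 FPKM in shENO1. NPAS2 did not pass (log2 fold change 0.26, adjusted p = 0.135) except with the block (adjusted p = 0.0418), and its level per kilobase was above that of CLOCK in every library. The difference in log2(FPKM + 1) between CLOCK and BMAL1 was 0.22 ± 0.23 (SD, n = 3) in shcon and 0.21 ± 0.16 (SD, n = 3) in shENO1.

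The 3 PER genes encode the proteins that, with CRY, hold back CLOCK and BMAL1, and none passed the test. PER1 (ENSG00000179094, chromosome 17) stood at 8.62, 8.46 and 5.69 FPKM in shcon and at 5.78, 5.22 and 4.26 FPKM in shENO1. Its groups overlapped through shcon replicate 3, which lay just below shENO1 replicate 1. The log2 fold change was -0.49 (standard error 0.16, adjusted p = 0.0594), not past the threshold. PER1 was called lower under 7 of 20 other settings, among them the block (adjusted p = 0.0103), limma-voom (-0.56, adjusted p = 0.0228) and the fit without shcon replicate 3 (-0.66, adjusted p = 0.00874).

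PER2 (ENSG00000132326, chromosome 2) stood at 1.56, 1.78 and 1.01 FPKM in shcon and at 1.65, 1.89 and 1.59 FPKM in shENO1, with overlap and a difference of 0.16 on the log2 scale (standard error 0.14, adjusted p = 0.432). PER3 (ENSG00000049246, chromosome 1) stood at 2.18, 2.28 and 1.58 FPKM in shcon and at 2.34, 2.70 and 2.50 FPKM in shENO1. The PER3 groups did not overlap but lay close, and the difference did not pass (log2 fold change 0.23, standard error 0.12, adjusted p = 0.188). PER3 shares 868 of its 8099 exonic bases with UTS2 on the opposite strand. Within a library, PER1 exceeded PER2 by 1.81 ± 0.09 (SD, n = 3) in log2(FPKM + 1) in shcon and by 1.16 ± 0.17 (SD, n = 3) in shENO1, and PER3 by 1.50 ± 0.12 and 0.79 ± 0.22 (SD, n = 3). Neither of these differences overlapped between the groups, whereas that between PER2 and PER3 did (-0.30 ± 0.06 and -0.38 ± 0.05). These differences are given as a description, without a test, and the share of other gene pairs that do not overlap was not computed. The 3 genes differ in GC content, at 62.6% for PER1, 53.2% for PER2 and 45.6% for PER3. With the trends of GC content and exon length removed, as described below, their log2 fold changes were -0.10 for PER1, 0.20 for PER2 and 0.01 for PER3.

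The cryptochromes CRY1 and CRY2, partners of the PER proteins and the stronger repressors of CLOCK and BMAL1, did not pass the test. CRY1 (ENSG00000008405, chromosome 12) stood at 5.79, 6.20 and 7.53 FPKM in shcon and at 7.17, 7.37 and 7.56 FPKM in shENO1, and shcon replicate 3 lay within the shENO1 range. Its log2 fold change was 0.16 (standard error 0.11, adjusted p = 0.273), and 0.26 without shcon replicate 3 (adjusted p = 0.0423). CRY2 (ENSG00000121671, chromosome 11) stood at 2.32, 2.2 and 1.96 FPKM in shcon and at 2.08, 2.07 and 1.65 FPKM in shENO1, a difference of -0.11 on the log2 scale (standard error 0.11, adjusted p = 0.481). CRY1 was above CRY2 in every library of both groups.

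DBP and TEF, activators of D-box genes whose own rhythm follows CLOCK and BMAL1, had lower mean levels in shENO1 and did not pass. DBP (ENSG00000105516, chromosome 19) stood at 3.65, 2.98 and 3.45 FPKM in shcon and at 3.44, 2.14 and 2.31 FPKM in shENO1. Its shENO1 replicate 1 lay within the shcon range and the other shENO1 libraries below it, and the log2 fold change was -0.28 (standard error 0.15, adjusted p = 0.186), or -0.43 without shENO1 replicate 1 (adjusted p = 0.0327). DBP shares 661 of its 6544 exonic bases with SPHK2 on the opposite strand, which was itself lower in shENO1 (log2 fold change -0.61, adjusted p = 0.0177). TEF (ENSG00000167074, chromosome 22) stood at 2.08, 1.80 and 1.09 FPKM in shcon and at 1.47, 1.35 and 1.22 FPKM in shENO1, a difference of -0.16 on the log2 scale (standard error 0.16, adjusted p = 0.472). The shcon libraries of TEF spanned the whole shENO1 range.

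By level per kilobase, NR1D2 led the shcon group, followed by PER1, CRY1, NR1D1, CLOCK and DBP, whose neighbours in this order overlapped between libraries, and then by CRY2, PER3, TEF and PER2, which overlapped likewise. In shENO1 the order was NR1D2, NR1D1, CRY1, PER1, CLOCK, DBP, PER3, CRY2, PER2 and TEF. There the overlapping neighbours were PER1 and CLOCK, DBP and PER3, and CRY2 and PER2. NR1D1 took the fourth place in shcon, where it overlapped with PER1, CRY1 and CLOCK, and the second in shENO1, where its range was clear of both neighbours.

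Across all genes, those rich in GC tended to be lower in shENO1 and those poor in GC higher. Over 7441 genes whose mean reached 5 FPKM, Spearman's rho between GC content and log2 fold change was -0.71, a description across genes that share the 6 libraries. The tenth of genes richest in GC had a median of -0.57 and the tenth poorest in GC a median of 0.39. The clock genes ranged from 39.6% GC (CLOCK) to 62.6% GC (PER1), and 8 of them lay between the 10th and the 90th percentile of genes of like GC content. These percentiles are of the 7441 genes. CLOCK, PER2, PER3, CRY2, DBP and TEF had means below 5 FPKM in both groups, where the log2 scale understates a change more.

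NR1D2 (40.6% GC) and NR1D1 (59.5% GC) lay above the 90th percentile. Genes of 39.7% to 41.8% GC had a median of 0.31 and a 90th percentile of 0.63, below the 0.78 of NR1D2. Genes of 58.5% to 61.8% GC had a median of -0.38 and a 90th percentile of -0.01, below the 0.75 of NR1D1. Once trends with GC content and with exon length had been taken out of each library, the log2 fold change was 0.44 for NR1D2 (adjusted p = 0.0247) and 1.16 for NR1D1 (adjusted p = 0.00724). These remained the only calls among the 10, beside 11.5% of all genes higher and 9.63% lower. CLOCK moved from 0.35 to -0.09 (adjusted p = 0.558) and PER1 from -0.49 to -0.10 (adjusted p = 0.442), PER3 stood at 0.01 and PER2 at 0.20, and CRY1 (-0.07), CRY2 (0.09), DBP (0.04) and TEF (0.04) took the opposite sign to that without the correction. Whether the trend is technical was not tested, and its removal would also take away biology that follows GC content or length.

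**Figure D2:**
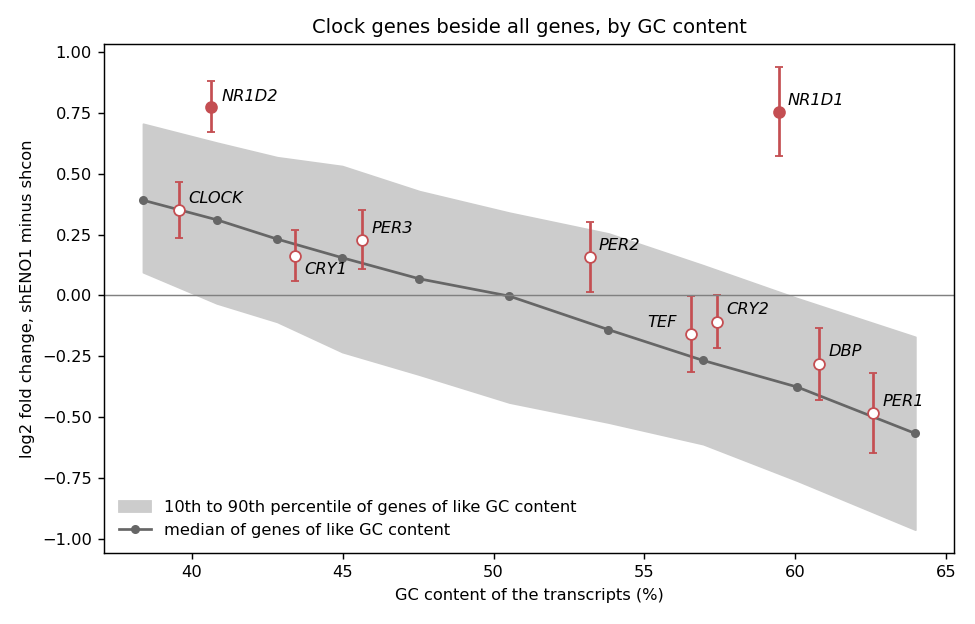
Log2 fold change of the 10 clock genes (points, with 1 standard error; filled where called) against the GC content of their transcripts in %, over the median (line) and the 10th to 90th percentile (band) of 7441 genes in 10 bins of GC content. NR1D1 and NR1D2 lie above the band, and the other 8 lie within it. The band is of genes whose mean reached 5 FPKM, a level that CLOCK, PER2, PER3, CRY2, DBP and TEF did not reach.

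**Figure D3:**
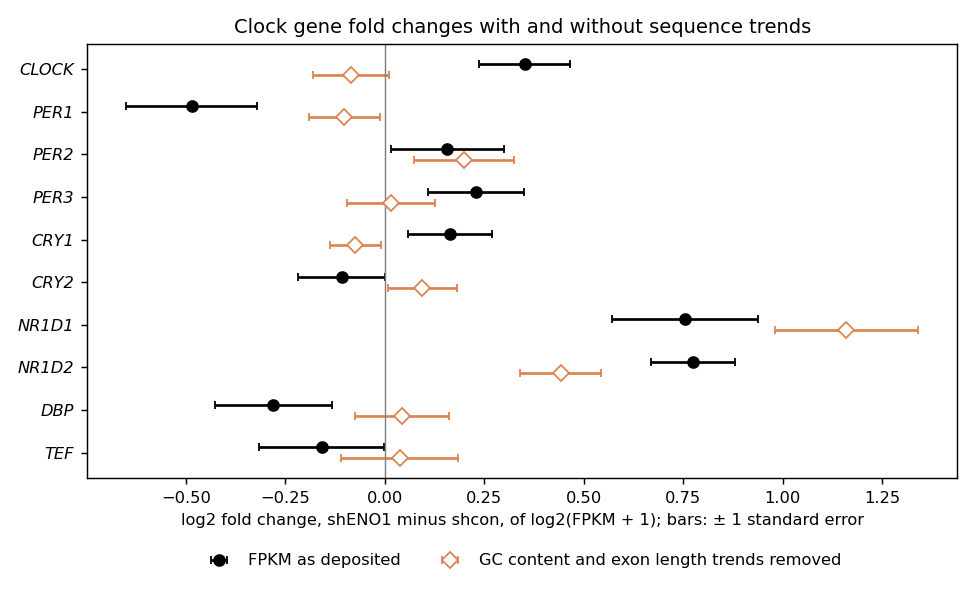
Log2 fold change, shENO1 minus shcon, of each clock gene on the log2(FPKM + 1) scale, as deposited (filled circles) and with trends of GC content and exon length taken out of each library (open diamonds), with 1 standard error. NR1D1 and NR1D2 stay above 0 in both, while CLOCK and PER1 come close to 0 after the removal.

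Of 11 further genes of the core loop, 6 passed the filter and 3 of these were higher in shENO1, BHLHE40, NFIL3 and BMAL1, with none lower, beside 15.1% higher and 14.4% lower of all genes tested. BHLHE40, the gene of DEC1, a repressor at E-boxes, stood at 27.0, 28.4 and 32.5 FPKM in shcon and at 48.1, 45.1 and 48.1 FPKM in shENO1. It was higher in each shENO1 library (log2 fold change 0.67, adjusted p = 0.00455), was called under all 20 other settings, and stood at 0.79 after the GC content and length trends were removed. NFIL3, the repressor at D-boxes, stood at 17.9, 18.1 and 14.5 FPKM in shcon and at 22.1, 25.4 and 26.5 FPKM in shENO1 (log2 fold change 0.53, adjusted p = 0.0151). The NFIL3 groups did not overlap, the call was lost without shENO1 replicate 2 (adjusted p = 0.0676) or replicate 3 (adjusted p = 0.0642), and it held after the removal of the trends (0.56, adjusted p = 0.0428). BMAL1 did not hold there (0.18, adjusted p = 0.188). BMAL2 (ARNTL2) had 0.27 (adjusted p = 0.0784, and 0.0394 with the block), and the block thus gave 5 higher of 6, beside 19.3% of all genes.

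RORA, an activator at the elements that REV-ERB proteins occupy, fell below the filter. It stood at 0.184, 0.191 and 0.0601 FPKM in shcon and at 0.641, 0.783 and 0.796 FPKM in shENO1, or 51, 52 and 17 fragments against 178, 226 and 211. Every shENO1 library held more, 5.10-fold by the means, and with no filter the log2 fold change was 0.60 (adjusted p = 0.0201, where 4.56% of 30716 genes were higher). Its exons share 564 of 17040 bases with RORA-AS1 on the opposite strand. RORB, BHLHE41, CIART and HLF stood below 0.1 FPKM in every library.

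Among 20 genes for the turnover and modification of clock proteins, 19 were tested, and 6 were higher and 1 lower, beside 15.1% and 14.4% of all genes tested, with a median of 0.19. Among those higher were SIRT1, a deacetylase that uses NAD+ (0.68, adjusted p = 0.011), and GSK3B, a kinase of several clock proteins (0.50, adjusted p = 0.00805). SIRT1 rose from 15.0, 14.4 and 19.9 FPKM in shcon to 24.0, 27.5 and 28.7 FPKM in shENO1. USP2, a deubiquitinase whose own transcript is rhythmic in mouse, was lower (-0.43, adjusted p = 0.0259), and CSNK2A1, a catalytic subunit of casein kinase 2, was higher (0.32, adjusted p = 0.042). Of the 6 fits without 1 library, the USP2 and CSNK2A1 calls were lost in 5 and the SIRT1 call in 1, without shENO1 replicate 2 (adjusted p = 0.0512). After the GC content and length trends were removed, SIRT1 was called (0.30, adjusted p = 0.0141), GSK3B (0.22) and USP2 (-0.24) were not, and CSNK2A1 stood at -0.10, with 3 genes of the list higher and 2 lower, beside 11.5% and 9.63% of all genes, and a median of -0.0096. The PER kinases CSNK1D and CSNK1E did not pass without that removal (-0.19, adjusted p = 0.192, and 0.09, adjusted p = 0.646). With the trends removed CSNK1E was called higher (0.39, adjusted p = 0.0256), as was CSNK2B, the regulatory subunit of casein kinase 2 (0.30, adjusted p = 0.0258), and TIMELESS (-0.26, adjusted p = 0.0221) and DDB1 (-0.30, adjusted p = 0.00929) were called lower.

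Of 10 clock-controlled output genes, 5 were higher and 1 lower, beside 15.1% and 14.4% of all genes tested, with a median of 0.34. NAMPT, the rate-limiting enzyme of NAD+ salvage, was higher (2.65, 2.70 and 3.74 FPKM in shcon, and 4.69, 5.39 and 5.67 FPKM in shENO1), by 0.64 on the log2 scale (adjusted p = 0.0115). WEE1, a kinase that delays mitosis, rose from 9.50, 9.44 and 9.36 FPKM to 13.6, 14.7 and 15.7 FPKM (0.59, adjusted p = 0.00491). The Krüppel-like factors KLF11 (0.43, adjusted p = 0.0259), KLF10 (0.42, adjusted p = 0.0231) and KLF9 (0.35, adjusted p = 0.0245) were higher too. POR, which passes electrons to cytochrome P450 enzymes, was lower (-0.60, adjusted p = 0.0191). After the trends were removed, 2 of the 10 were higher, WEE1 (0.23, adjusted p = 0.0326) and the cell cycle inhibitor CDKN1A (0.55), and none lower, beside 11.5% and 9.63% of all genes, with a median of 0.24. Of the 6 fits without 1 library, the KLF9 and KLF11 calls were lost in 4, the KLF10 and POR calls in 3, and the NAMPT call in 1, without shENO1 replicate 2 (adjusted p = 0.0523).

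**Figure D4:**
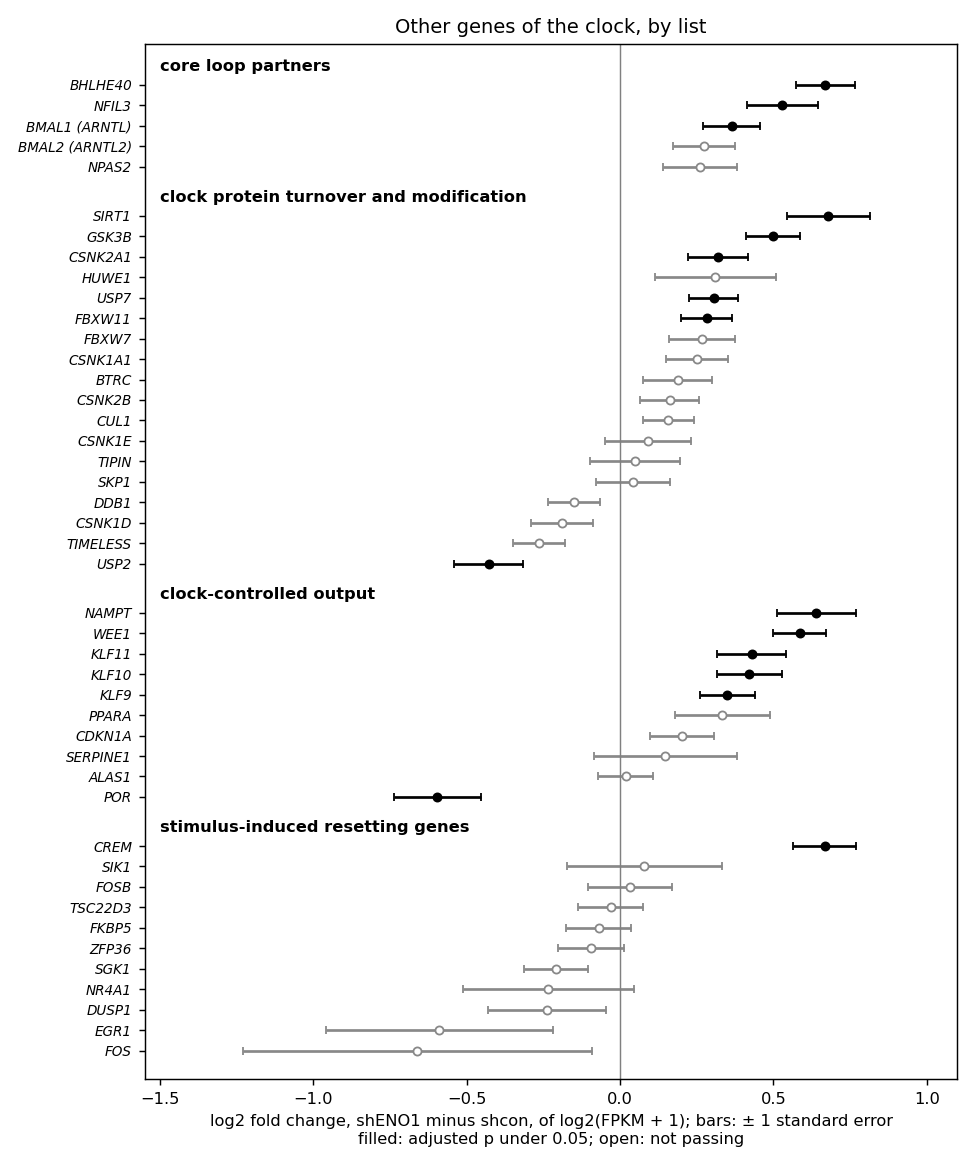
Log2 fold change, shENO1 minus shcon, with 1 standard error, of the tested genes of the other clock lists, without 2 that are not reported here, from the fit of log2(FPKM + 1); filled points have an adjusted p under 0.05. BHLHE40, NFIL3 and BMAL1 lead the core loop partners, and USP2 and POR are the called genes below 0.

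Genes induced by serum, cAMP or glucocorticoids, stimuli that set the clock, were examined because PER1 belongs to the same response. Of 11, CREM was higher (3.09, 3.11 and 2.46 FPKM in shcon, and 5.02, 5.02 and 5.42 FPKM in shENO1, log2 fold change 0.67, adjusted p = 0.00555), none was lower, beside 15.1% higher and 14.4% lower of all genes tested, and the median was -0.09. CREM encodes activators and repressors at cAMP response elements. After removal of both trends the list had 2 higher, CREM (0.42, adjusted p = 0.0444) and ZFP36 (0.41, adjusted p = 0.00668), and 2 lower, beside 11.5% and 9.63% of all genes, and its median turned to 0.092. FOS, EGR1 and NR4A1 fall outside the rule for named genes and are given because of their values, as are DUSP1 and SIK1 in the plot of these genes. FOS, an immediate early transcription factor, stood at 17.3, 17.8 and 2.64 FPKM in shcon and at 6.19, 5.79 and 5.52 FPKM in shENO1, and EGR1, another, at 6.28, 6.06 and 1.57 FPKM and at 2.54, 2.65 and 2.01 FPKM. NR4A1 stood at 10.9, 12.4 and 5.12 FPKM in shcon and at 8.81, 7.35 and 6.34 FPKM in shENO1. In all of these shcon replicate 3 was below every shENO1 library and the other shcon libraries were above. None passed (adjusted p = 0.407 for FOS, 0.258 for EGR1 and 0.551 for NR4A1). Without shcon replicate 3 all were called lower in shENO1, FOS by -1.44 on the log2 scale (adjusted p = 0.000508), EGR1 by -1.08 (0.00256) and NR4A1 by -0.58 (0.0169). In that fit 1 of the 11 was higher and 5 lower, beside 3028 higher and 2799 lower of 15181 genes tested. The genes were picked for their values and the library left out is the one that sets them apart, so these p-values are not a test of a decrease.

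Across the list, shcon replicate 3 was the lowest shcon library in 10 of 11 stimulus-induced genes. It was the lowest in 8 of the 10 clock genes, all but CRY1 and DBP, and in 42.7% of all genes tested. PER1 was low in the same library. Without it the PER1 difference was larger (-0.66), and the 2 calls of NR1D1 and NR1D2 held. The glucocorticoid-induced genes FKBP5 (-0.07, adjusted p = 0.643), TSC22D3 (-0.03, adjusted p = 0.848) and SGK1 (-0.21, adjusted p = 0.161) did not pass. With the trends removed FKBP5 (-0.40, adjusted p = 0.0117) and SGK1 (-0.48, adjusted p = 0.0143) were called lower. The part of a different time or handling of this library in the clock gene values was not tested.

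**Figure D5:**
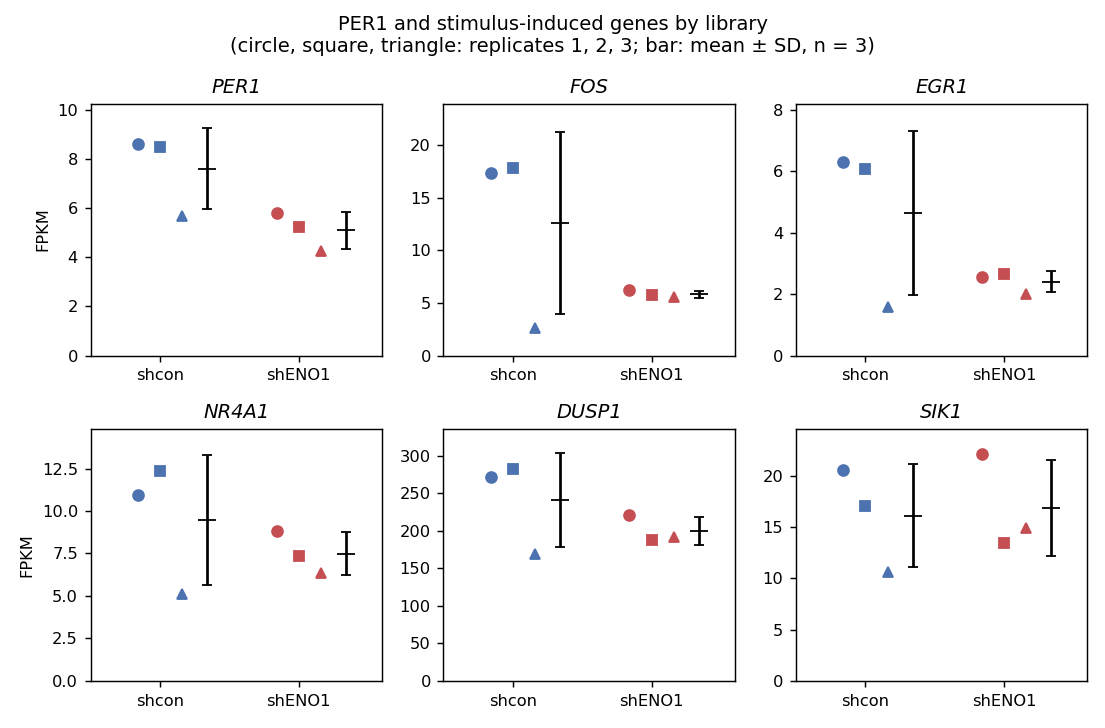
FPKM of PER1 and of 5 stimulus-induced genes in each library (circle, square and triangle are replicates 1, 2 and 3), with the mean and SD of 3 libraries; axes start at 0. The third shcon library (triangle) lies below the other shcon libraries in all 6 panels.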

How the data were processed

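RNA of SNU16 cells was sequenced in 6 libraries, 3 of each group. The authors deposited 1 FPKM value per gene and library. The submitters' processing notes list cutadapt, featureCounts and MultiQC, with GRCh38 as the build and no versions, and reads of low quality or short length were discarded. No aligner, annotation release or program for FPKM is given in the sources used here.

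The members and gene lists were chosen with earlier results of these data known. Of 30716 genes, 8135 of them without a symbol, the 15181 whose mean reached 0.5 FPKM were compared with limma 3.58.1 (lmFit, eBayes with trend) in R 4.3.3 on log2(FPKM + 1), without further terms. The genes named were the 10 members, ENO1, BMAL1, NPAS2 and, from every list, the called genes of largest fold change, 5 at most. Others named were chosen after their values were seen. The counts of the lists include 2 genes that are not reported here by name.

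FPKM steps gave library sizes, with a tolerance of 0.05 fragments. With annotated lengths 76.5% to 77.3% of values up to 100 fragments came out whole. Whole fragments were recovered for 6203 genes from the annotated length and for 8969 more from a fitted length, and limma-voom on these called 2702 genes higher and 2485 lower. The counting error of a fragment number does not include the spread between libraries. GENCODE 29 supplied GC content and exon length for 15031 of the genes kept (99.0%). Their trends were removed in each library by natural splines of 4 degrees of freedom, fitted outside the lists on genes whose mean reached 5 FPKM. Same-numbered libraries deviated together (correlations 0.230, 0.118 and 0.256), so the replicate number was also fitted as a block. The labels give the numbers and do not describe pairs. Gene coordinates are those of the table.

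The other settings tried were pseudocounts of 0.1 and 0.5, other filters and variance fits, quantile and median-of-ratios scaling, a minimum fold change, and leaving out each library. The method was tested on simulated data of 15181 genes. Of 100 genes with a log2 fold change of 1, 86 were called, of 100 with 0.5, 17, and 4 others were called. Python 3.11.15, pandas 2.3.3, numpy 2.4.6 and matplotlib 3.10.9 were used.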

Additional observations from a re-analysis of the deposited data

How the results depend on the processing

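The counts of clock genes called (2 higher, 0 lower) became 1 higher with no filter, 0 higher with a minimum absolute log2 fold change of 1, and 1 lower with a mean of at least 5 FPKM, quantile normalization, median-of-ratios scaling, the exon length trend removed, or limma-voom on recovered fragments. Of all genes tested, these last settings called 1814, 2313, 2398, 2076 and 2485 lower, in the order named, the first among fewer genes. Leaving out 1 library gave 1 to 3 clock genes higher and 0 to 1 lower. For all genes (2289 higher, 2188 lower), no filter gave 1402 higher and 1302 lower, the minimum fold change 125 and 169, and leaving out 1 library 753 to 3028 higher and 756 to 2799 lower. Removal of the GC content trend gave 1531 higher and 1314 lower, and of GC content and length trends 1723 and 1447. With the block added to the latter, 1748 were higher and 1376 lower. The fold change of CLOCK turned to -0.085 with both trends removed. With the GC content trend or both removed, CRY1 turned to -0.055 and -0.074, CRY2 to 0.16 and 0.094, DBP to 0.12 and 0.042, and TEF to 0.079 and 0.037. CSNK2A1 turned to -0.040 with the length trend and -0.096 with both trends removed. Adding the block to the removal of both trends left the values for both trends unchanged. The cause was not tested.

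With the replicate block, 3 clock genes were higher and 1 lower, and 2927 genes were higher and 2711 lower of all. Among the lists the block added CLOCK, PER1, NPAS2, BMAL2, HUWE1 and PPARA and changed no other call. With both trends removed as well, NFIL3 (adjusted p = 0.0522), CREM (0.0529) and WEE1 (0.052) were lost. Over the 26 genes taken by the rule for named genes and all alternatives, 417 values kept direction and side of the threshold, 89 lost the call, 12 gained it and 17 changed sign. The minimum fold change is among these alternatives. Under it a gene with an absolute log2 fold change under 1 could only lose its call or stay uncalled. In the simulation 17% of genes changed by 0.5 on the log2 scale were called. Few of its genes were changed, 100 by 1 and 100 by 0.5 of 15181, whereas 29.5% of genes were called in the data. Changes below 0.5 were not simulated. The simulation therefore cannot tell whether differences of the size seen for PER2, PER3, CRY1, CRY2, DBP and TEF were detectable with 3 libraries a group.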
